A study of Mus musculus with 90 samples.

Results

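The interferon response genes described here are 48 genes that cells switch on, or use to respond, when interferon binds its receptor. They were chosen by symbol, as the rows of the deposited raw count table of 23420 genes that carry one of the 48 names, and every one of the 48 was found and passed the filter on low counts in every comparison except those between genotypes in DP cells, where 47 did. Grouped by role, they hold 2 receptor subunits, 6 transcription factors, 4 sensors of foreign nucleic acid, 17 antiviral effectors, 6 genes of the ISG15 and ADP-ribose system, 8 guanylate-binding or immunity-related GTPases and 5 further induced genes. Their levels are CPM, the counts of a gene per 1 M counts of its library, and means over genes were taken on the log2 CPM scale.

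The study sorted T cells from mice for RNA sequencing in 2 series. The first series has 10 groups of 3 libraries from mice labelled WT: regulatory T cells (Tregs) of a population labelled IL10, one labelled Ebi3 and one labelled double negative (DN), each from the tumour, the non-draining lymph node and a source labelled naive T cell, and naive effector T cells (Teff). Ebi3 encodes a subunit of the cytokine IL-35, and by the study's design these Tregs were separated on IL10 and IL35 expression. The second series has 60 libraries of CD8 T cells from mice of 4 genotypes, with 3 libraries per population for yfp, 4 for DKO, 2 for Il10 and 3 for Ebi3L. The design text gives knockouts of IL10, of IL35 and of both as specific to Tregs, so the CD8 cells themselves were not the target of a deletion and their own Il10 and Ebi3 levels do not check the labels. The CD8 cells came from the non-draining lymph node (NDLN) and, in the tumour, from 4 populations: NEG, with neither PD-1 nor TIM-3, INT, with intermediate PD-1 and no TIM-3, SP, with high PD-1 and no TIM-3, and DP, with high PD-1 and with TIM-3. PD-1 and TIM-3 are inhibitory receptors whose joint presence marks T cells described as exhausted. The CD8 libraries fall into 12 sources, a source being the 5 populations of 1 genotype in 1 set of libraries. Nothing in the labels gives the tumour, the age of the mice, how the naive source differs from the lymph node, or whether libraries of a group came from separate animals, so the p-values measure the spread between these libraries, which may be technical.

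Library totals ran from 9.73 M to 20.2 M counts in the Treg series and from 19.2 M to 47.7 M in the CD8 series, and a count of 3 was worth 0.0629 to 0.308 CPM. No pair of libraries within a group agreed to within sampling noise. Summed markers fitted the labelled cell types. The summed CPM of CD8 markers was at least 1428 in every CD8 library and at most 43.2 in the Treg series. That of Treg markers was at least 1250 in every Treg library and at most 58.2 in Teff, but reached 853 in SP CD8 libraries. Foxp3 alone read 29.7, 15.9 and 27.6 CPM in Teff and 37.2, 71.4 and 29.1 in lymph node Ebi3 Tregs, which overlapped. Every library of the other Treg groups was above the Teff libraries for Foxp3. The lymph node Ebi3 library of replicate 3 stood apart, with a summed CPM of myeloid markers of 213.9, so results that rest on it are also given without it. In bulk libraries such as these, fewer cells of a type and less RNA per cell cannot be told apart.

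Type I interferons bind a receptor made of IFNAR1 and IFNAR2, and the kinases attached to it activate a complex that holds STAT2 and IRF9 and binds the interferon-stimulated response element (ISRE) of target genes. Interferon gamma uses another receptor and acts on the gamma-activated site (GAS), which many GTPase genes and Irf1 carry. The induced proteins block viral replication or tune the response itself, and in T cells of a tumour the program is often read as a sign of exposure to interferon.

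The promoters show which of these elements the genes carry, and 6 are printed because they hold the motifs in front of genes described below. RefSeq windows (GRCm38.p6) from 250 bases before to 50 bases after the start were found for 36 of the 48 genes. The ISRE-like letters, GAAA, any 2 bases and GAAA again, or TTTC, any 2 bases and TTTC on the other strand, stood in 18 of the 36 (50%) and in 3.99% of 27025 genes with a window. The GAS-like letters TTCNNNGAA, which read the same on both strands, stood in 13 of the 36 (36.1%) and in 9.55% of all genes. A match says only that the letters are there. The sequences are the 250 bases before the start, 5′ to 3′ on the strand of the gene, with the motif in capitals. Ifit1 (chr19:34640639-34640888, plus strand) has 2 ISRE-like matches, Isg15 (chr4:156200819-156201068, minus strand) has 3 that overlap, and Rsad2 (chr12:26456453-26456702, minus strand) and Gbp2 (chr3:142620413-142620662, plus strand) have 1 each. Irf1 (chr11:53769764-53770013, plus strand) has 1 GAS-like match and Irf8 (chr8:120736108-120736357, plus strand) has 2, each in one of the windows listed for the gene. Dhx58, Iigp1, Ly6a, Ly6e, Mx1, Mx2, Oas2, Parp14, Parp9, Rtp4, Usp18 and Zbp1 had no entry.
Ifit1: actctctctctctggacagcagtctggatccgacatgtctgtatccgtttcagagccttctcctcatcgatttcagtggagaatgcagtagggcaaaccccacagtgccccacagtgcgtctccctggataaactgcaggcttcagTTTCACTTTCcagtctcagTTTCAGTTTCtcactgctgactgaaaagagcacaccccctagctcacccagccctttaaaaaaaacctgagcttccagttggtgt
Isg15: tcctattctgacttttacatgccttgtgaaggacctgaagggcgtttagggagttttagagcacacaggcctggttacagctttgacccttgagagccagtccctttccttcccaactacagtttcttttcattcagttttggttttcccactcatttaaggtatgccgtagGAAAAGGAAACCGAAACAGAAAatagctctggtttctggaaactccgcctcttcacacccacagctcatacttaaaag
Rsad2: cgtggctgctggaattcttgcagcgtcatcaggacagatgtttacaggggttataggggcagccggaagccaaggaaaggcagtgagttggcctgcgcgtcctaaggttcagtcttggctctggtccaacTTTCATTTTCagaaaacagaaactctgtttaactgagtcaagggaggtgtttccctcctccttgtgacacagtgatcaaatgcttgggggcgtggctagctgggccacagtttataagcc
Gbp2: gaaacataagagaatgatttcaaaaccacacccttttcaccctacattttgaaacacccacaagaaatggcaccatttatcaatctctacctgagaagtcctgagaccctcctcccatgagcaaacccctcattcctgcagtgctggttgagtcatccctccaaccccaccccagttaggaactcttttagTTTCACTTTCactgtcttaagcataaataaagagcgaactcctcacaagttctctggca
Irf1: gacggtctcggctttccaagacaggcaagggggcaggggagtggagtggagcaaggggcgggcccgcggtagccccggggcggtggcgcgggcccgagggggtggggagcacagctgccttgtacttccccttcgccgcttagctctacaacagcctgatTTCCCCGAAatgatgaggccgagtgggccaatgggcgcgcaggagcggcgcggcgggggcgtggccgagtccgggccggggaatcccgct
Irf8: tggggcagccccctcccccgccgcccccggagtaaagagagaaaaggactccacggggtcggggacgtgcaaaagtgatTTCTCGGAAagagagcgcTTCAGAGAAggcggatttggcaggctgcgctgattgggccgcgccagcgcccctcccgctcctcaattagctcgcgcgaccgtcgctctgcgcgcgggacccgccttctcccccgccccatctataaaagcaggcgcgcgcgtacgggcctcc

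Several members lie side by side on GRCm38 (mm10). Ifit2, Ifit3 and Ifit1 follow each other on chromosome 19 from 34550694 to 34650009, and Gbp7, Gbp3 and Gbp2 on chromosome 3 from 142530342 to 142638008. Oas2, Oas3 and Oas1a lie on chromosome 5 between 120730333 and 120907521, and Ifnar2 and Ifnar1 on chromosome 16 between 91372783 and 91507441. Igtp and Irgm2 overlap on the same strand of chromosome 11. Other gene models on the same strand cover 13.9% of the exonic bases of Rtp4, 13.7% of Herc6, 11.3% of Gbp7 and 9.46% of Ifnar2. Only Ifi35, with 16.8%, had more than 10% of its exonic bases under an antisense gene. The sources used here do not give a strand setting for the counting, and the levels of these genes carry that uncertainty.

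**Figure D1:**
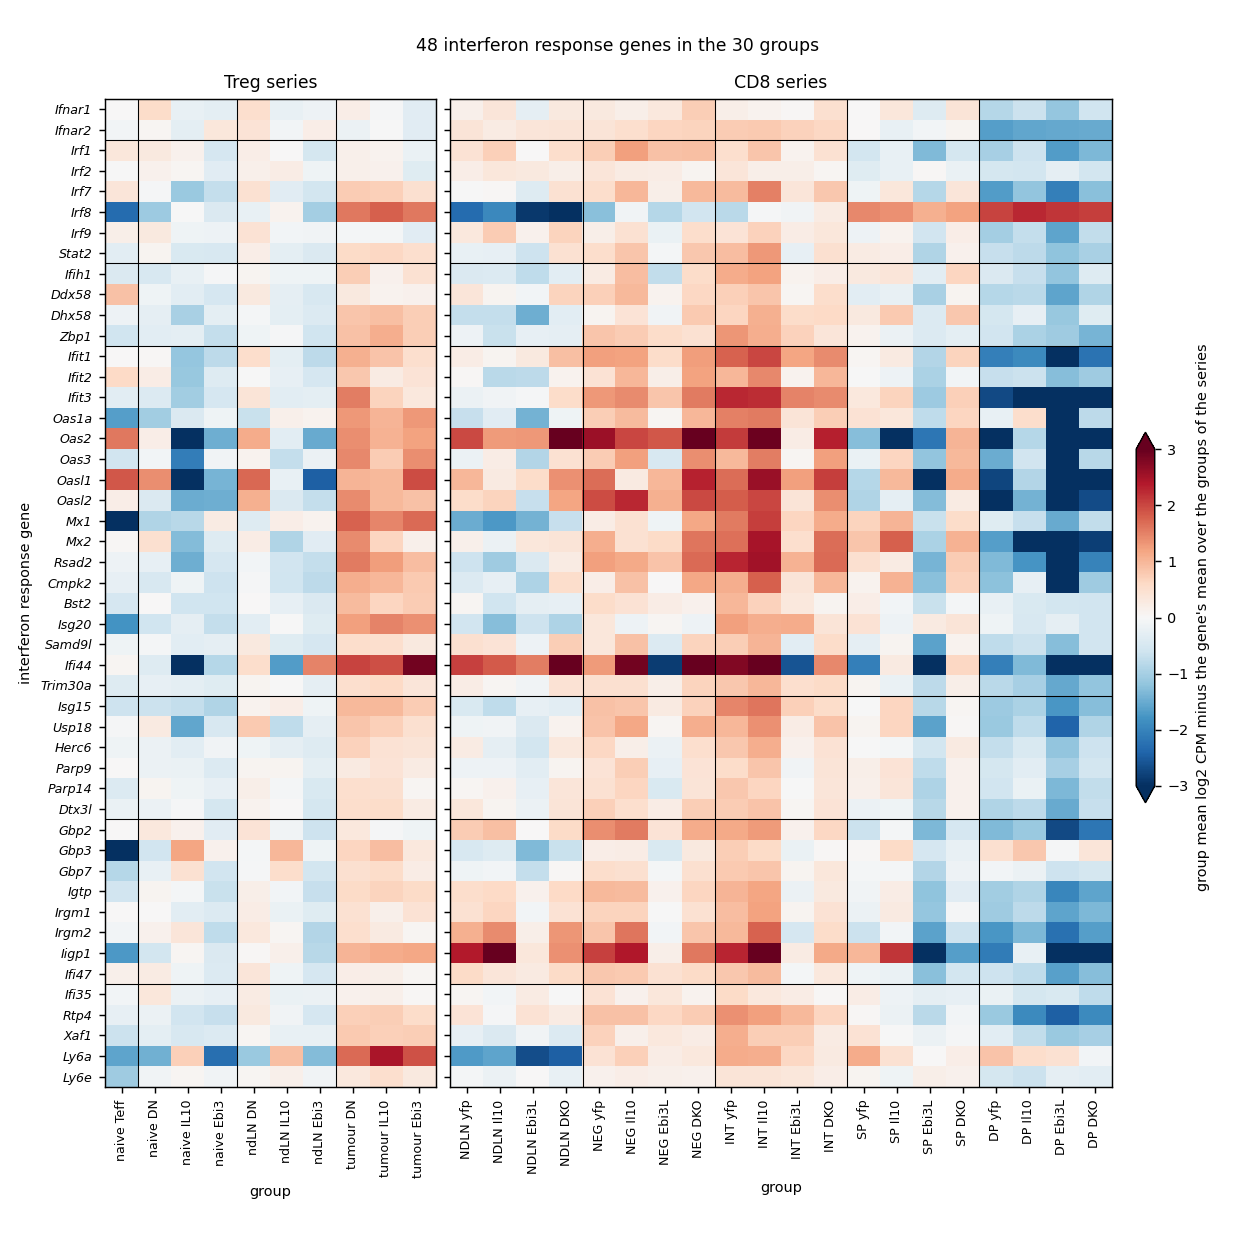
Mean log2 CPM of each of the 48 genes (lines, ordered by role) in the 10 Treg-series groups and the 20 CD8 groups (columns), shown as the difference from the mean of the gene over the groups of its own series. The tumour Treg columns lie above the lymph node columns for most genes, and the DP columns hold the lowest values of most genes in the CD8 series.

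In all 3 Treg populations the interferon response genes were, for the most part, higher in the tumour than in the lymph node. The mean log2 CPM of the 48 genes was 6.69, 7.28 and 6.62 in lymph node DN Tregs of batches 1, 2 and 3 and 7.21, 7.57 and 7.67 in tumour DN Tregs. In IL10 Tregs it was 6.21, 6.79 and 6.60 in the lymph node and 7.05, 7.36 and 7.71 in the tumour, and in Ebi3 Tregs it was 6.16, 6.63 and 5.89 against 7.07, 7.44 and 7.31. The tumour libraries lay above the lymph node library of the same batch in each of the 3 populations, and in DN Tregs alone the ranges overlapped, because the batch 2 lymph node library exceeded the batch 1 tumour library. In the naive source it was 6.31, 6.67 and 6.65 in DN, 5.85, 6.26 and 5.91 in IL10 and 6.09, 6.41 and 6.02 in Ebi3 Tregs. Teff stood at 6.4, 6.44 and 6.04.

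**Figure D2:**
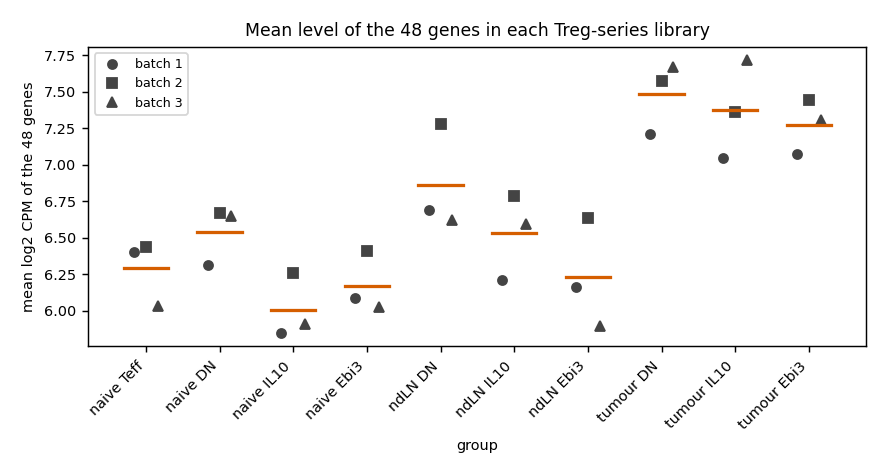
Mean log2 CPM of the 48 genes (vertical axis) in each of the 30 libraries of the Treg series, with the 10 groups along the horizontal axis, a symbol for each batch and a bar for the group mean. The tumour libraries lie between 7.05 and 7.71, and the naive and lymph node libraries between 5.85 and 7.28.

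Genes were tested with edgeR's quasi-likelihood test with batch as a term, and a gene was called where its Benjamini-Hochberg adjusted p over all 12907 genes tested was under 0.05. Effects are log2 fold changes with their standard error (SE). In DN Tregs 27 of the 48 genes were higher in the tumour and 1 was lower, while 12.9% of all genes tested were called higher and 10.5% lower. In IL10 Tregs 31 were higher and 0 lower, against 5.56% and 3.77% of all genes. In Ebi3 Tregs 36 were higher and 0 lower, against 6.24% and 4.01% of all genes. The median log2 fold change of the 48 genes was 0.56 in DN, 1.05 in IL10 and 1.05 in Ebi3 Tregs, where the median of all genes was 0.01, -0.02 and -0.04. By genes, 22 were called higher in all 3 populations, 7 in IL10 and Ebi3 but not in DN, and 9 in none. The 7 were Ddx58, Ifi47, Irgm1, Oasl2, Parp14, Stat2 and Usp18, and the 9 were Ifi44, Ifnar1, Ifnar2, Irf2, Irf9, Isg15, Mx2, Oasl1 and Parp9. These counts depend on the batches: without batch 3 they were 14, 18 and 27, without batch 1 21, 25 and 31, and without batch 2 20, 26 and 26. Without the lymph node Ebi3 library of replicate 3 they were 26, 31 and 28. Of the calls, 14 of 28, 16 of 31 and 23 of 36 held in all 4 of these fits, and Irf8, Zbp1, Isg20, Bst2, Iigp1, Xaf1, Ly6a and Ly6e did so in each population.

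**Figure D3:**
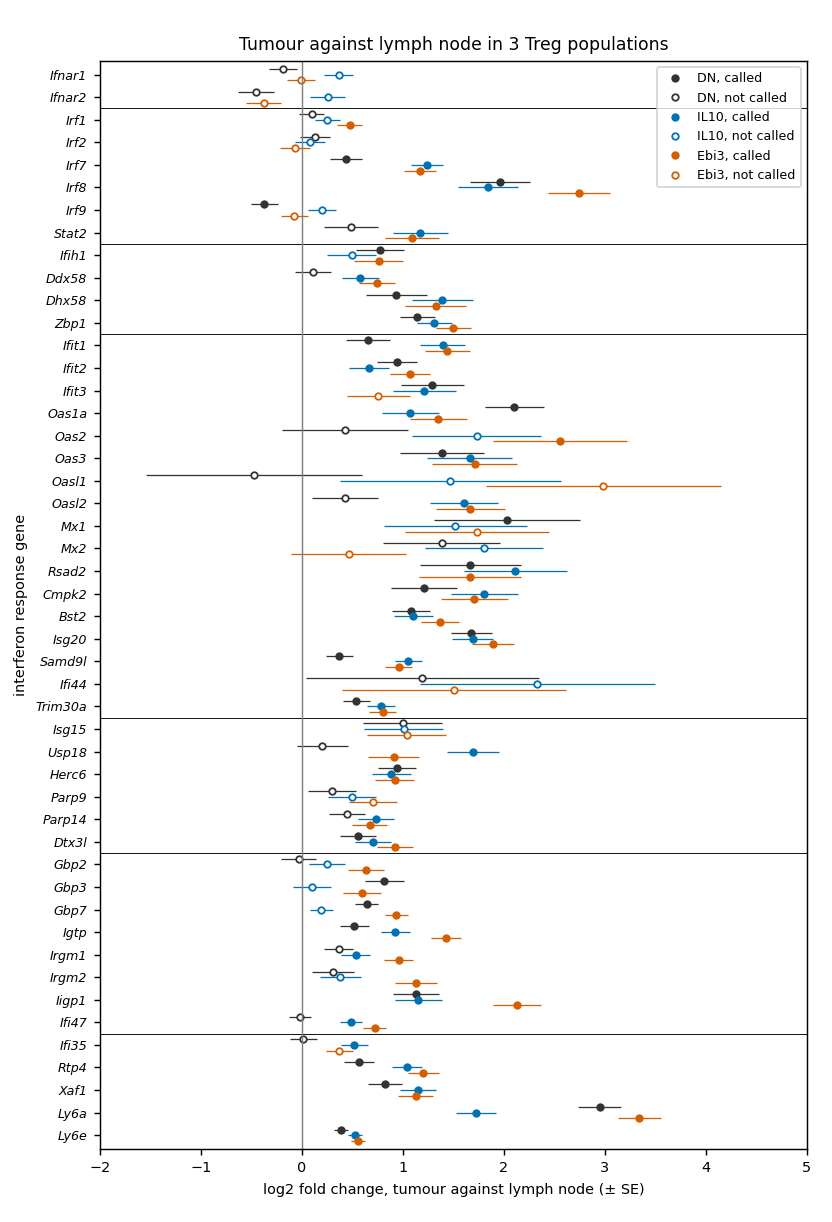
Log2 fold change of tumour against lymph node (horizontal axis, bars ± SE) for each of the 48 genes (vertical axis, ordered by role) in DN, IL10 and Ebi3 Tregs, with filled points for genes called at an adjusted p under 0.05. Most points lie right of 0, Ly6a, Irf8 and Isg20 are called in all 3 populations, and no point of Ifnar1 or Ifnar2 is filled.

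Among the receptor subunits neither Ifnar1 nor Ifnar2, which together form the type I interferon receptor, was called between tumour and lymph node in any population. Ifnar1 read 306, 285 and 260 CPM in lymph node DN and 214, 231 and 245 in tumour DN Tregs, with a log2 fold change of -0.19 ± 0.14 (SE). Ifnar2 read 104, 127 and 96.8 CPM in lymph node DN and 58.7, 87.7 and 74.1 in tumour DN Tregs, with -0.45 ± 0.18 and an edgeR adjusted p of 0.061. The groups did not overlap for either gene in DN Tregs, with the tumour lower, but the differences missed the threshold. The direction was not shared by all populations. In IL10 Tregs the log2 fold changes of all 48 genes, both subunits included, were positive.

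Of the 6 transcription factors, Irf8 and Irf7 were called in all 3 populations. Irf8, a factor of myeloid and lymphoid development that interferon gamma induces, read 34.1, 45.8 and 28.5 CPM in lymph node DN and 95.8, 134 and 149 in tumour DN Tregs. In IL10 Tregs it read 59.6, 38.2 and 39.3 against 115, 166 and 158, and in Ebi3 Tregs 17.1, 32.2 and 15.3 against 110, 156 and 112. Every tumour library was above every lymph node library. The log2 fold changes were 1.96 ± 0.30, 1.84 ± 0.30 and 2.74 ± 0.31, with edgeR adjusted p values of 1.6e-05, 7.9e-05 and 2.7e-07.

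Irf7, which drives the later wave of type I interferon and its targets, differed more between populations. It read 186, 321 and 168 CPM in lymph node DN and 200, 324 and 288 in tumour DN Tregs, so that the groups overlapped and the log2 fold change was 0.43 ± 0.16, with an edgeR adjusted p of 0.049 that was lost in each of the 4 fits with a batch or a library left out. In IL10 Tregs it read 106, 165 and 108 in the lymph node and 192, 309 and 281 in the tumour, and in Ebi3 Tregs 104, 145 and 82.2 against 175, 300 and 196. There the groups did not overlap, and the log2 fold changes were 1.24 ± 0.16 and 1.17 ± 0.16. Stat2, a part of the complex that binds the ISRE, rose in IL10 (1.17 ± 0.27) and Ebi3 Tregs (1.09 ± 0.27) and read 0.49 ± 0.27 in DN Tregs, which was not called. Irf1, the early factor downstream of interferon gamma, rose in Ebi3 Tregs alone among the calls, by 0.47 ± 0.12. Irf9 was the 1 gene called lower, in DN Tregs, by a log2 fold change of -0.37 ± 0.14, a call that no fit with a batch or library left out kept.

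Zbp1, a sensor of left-handed nucleic acid that can start cell death, rose in all 3 populations. It read 136, 109 and 105 CPM in lymph node DN and 203, 204 and 314 in tumour DN, 134, 94.8 and 149 against 281, 212 and 338 in IL10, and 83.3, 90.8 and 78.1 against 215, 174 and 262 in Ebi3 Tregs. No tumour library overlapped the lymph node libraries of its population, and the log2 fold changes were 1.14 ± 0.17, 1.31 ± 0.17 and 1.5 ± 0.17. The RNA sensors Ifih1, Ddx58 and Dhx58, which detect viral RNA in the cytosol, gave smaller values: Dhx58 rose in all 3, Ifih1 in DN and Ebi3, and Ddx58 in IL10 and Ebi3 Tregs.

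Of the 17 antiviral effectors, 12 were called higher in DN, 12 in IL10 and 12 in Ebi3 Tregs, and 10 of them in all 3 populations. Isg20, an exonuclease that degrades RNA, read 124, 106 and 132 CPM in lymph node DN and 338, 261 and 490 in tumour DN Tregs. It read 147, 128 and 168 against 416, 290 and 596 in IL10 and 121, 106 and 122 against 434, 276 and 473 in Ebi3 Tregs. The tumour libraries were all higher, and the log2 fold changes of 1.68 ± 0.21, 1.69 ± 0.21 and 1.89 ± 0.21 were close to each other. Bst2, the tether that holds budding virus at the cell surface, rose by 1.08 ± 0.19, 1.1 ± 0.19 and 1.37 ± 0.19. Oas1a, which makes the second messenger that activates RNase L, rose by 2.10 ± 0.29 in DN, 1.07 ± 0.28 in IL10 and 1.35 ± 0.28 in Ebi3 Tregs. Rsad2 (viperin), which makes a chain-terminating nucleotide, rose by 1.67 ± 0.50, 2.11 ± 0.51 and 1.67 ± 0.51, and in none of the populations did its call hold in all 4 fits with a batch or library left out.

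Ifit1, which binds viral RNA that lacks host cap marks, showed where the lymph node groups differed. It read 286, 339 and 197 CPM in lymph node DN, 124, 170 and 164 in lymph node IL10 and 89.8, 160 and 86.7 in lymph node Ebi3 Tregs. In the tumour it read 298, 444 and 454 in DN, 259, 304 and 491 in IL10 and 215, 338 and 254 in Ebi3 Tregs. The tumour libraries of the 3 populations overlapped, while in the lymph node each DN library exceeded each IL10 and Ebi3 library. Tumour against lymph node, the log2 fold change was 0.66 ± 0.22 in DN, 1.40 ± 0.22 in IL10 and 1.44 ± 0.22 in Ebi3 Tregs. Oasl2, an oligoadenylate synthetase-like protein, followed the same order with 0.43 ± 0.33 in DN, which was not called, and 1.61 ± 0.34 and 1.67 ± 0.34 in the others.

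In the ISG15 system, Isg15 encodes the ubiquitin-like protein and Usp18 the protease that removes it and also damps signalling at IFNAR2. Isg15 read 9.33, 12.9 and 12.1 CPM in lymph node DN and 19, 19.1 and 24.9 in tumour DN Tregs, groups that did not overlap. Its log2 fold changes of 1.00 ± 0.39, 1.04 ± 0.39 and 1.01 ± 0.39 in DN, Ebi3 and IL10 Tregs all missed the threshold, with edgeR adjusted p values of 0.065, 0.099 and 0.11. Usp18 read 215, 257 and 179 CPM in lymph node DN and 179, 209 and 296 in tumour DN, with 0.20 ± 0.25. In IL10 Tregs it read 70.6, 66.9 and 84.4 in the lymph node and 176, 175 and 283 in the tumour, with no overlap and 1.69 ± 0.26. In Ebi3 Tregs the log2 fold change was 0.91 ± 0.25, and that call was lost in each of the 4 fits with a batch or library left out.

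All 8 GTPases, of families that act in defence against intracellular microbes, were called higher in the tumour in Ebi3 Tregs. In DN Tregs 4 of 8 were, and in IL10 Tregs 4 of 8. Without lymph node Ebi3 replicate 3 the counts were 7, 5 and 4. The difference between these counts was not tested, and the test of the change gene by gene, Ebi3 less DN, called Igtp and Ifi47 of the 8. Iigp1 read 131, 180 and 193 CPM in lymph node DN and 246, 372 and 398 in tumour DN, 177, 161 and 204 against 273, 321 and 496 in IL10, and 89.5, 118 and 69.6 against 273, 391 and 452 in Ebi3 Tregs. Tumour and lymph node did not overlap in any of the 3, with log2 fold changes of 1.13 ± 0.23, 1.15 ± 0.23 and 2.13 ± 0.24. Igtp read 746, 881 and 704 CPM in lymph node DN, 638, 648 and 654 in lymph node IL10 and 424, 481 and 368 in lymph node Ebi3 Tregs. In the tumour it read 829, 1084 and 1157 in DN, 883, 1148 and 1251 in IL10 and 853, 1113 and 1103 in Ebi3 Tregs. The lymph node Ebi3 libraries were the lowest and the tumour groups overlapped, and the log2 fold changes were 0.52 ± 0.15, 0.93 ± 0.15 and 1.43 ± 0.15. Gbp2 rose in Ebi3 Tregs by 0.64 ± 0.18 and read -0.03 ± 0.18 in DN and 0.25 ± 0.18 in IL10 Tregs.

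Ly6a encodes Sca-1, a surface protein of stem cells and activated T cells, and had the largest change of the 48 genes in DN and Ebi3 Tregs. It read 386, 426 and 346 CPM in lymph node DN and 2403, 2565 and 3233 in tumour DN, and 297, 468 and 268 against 2838, 2849 and 3661 in Ebi3 Tregs. In IL10 Tregs the lymph node libraries were already at 1386, 1739 and 1574 and the tumour libraries at 4355, 4029 and 5363. The tumour libraries did not overlap the lymph node libraries in any population, and the log2 fold changes were 2.95 ± 0.21, 3.34 ± 0.21 and 1.72 ± 0.20. Ly6e, a related surface protein that limits entry of coronaviruses, rose by 0.39 ± 0.07, 0.53 ± 0.07 and 0.56 ± 0.07 in DN, IL10 and Ebi3 Tregs.

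Marker genes of other cells moved between the same sites. The summed CPM of 6 conventional dendritic cell markers was 20.8 to 36.1 in tumour Tregs and 1.79 to 15.2 in lymph node Tregs. Most of it came from Xcr1 and Zbtb46. Xcr1 had a mean CPM of 11.2, 7.43 and 12.6 in tumour and 1.79, 5.59 and 7.72 in lymph node DN, IL10 and Ebi3 Tregs, and was called in DN alone. Zbtb46 had 17.1, 20.2 and 13.2 against 1.13, 2.15 and 2.34 and was not called. In the tumour Batf3 was at 0 in every library, and Clec9a in every IL10 and Ebi3 library. The plasmacytoid dendritic cell list, which holds Bst2 and Irf8 themselves, summed to 274.3 to 479 against 105 to 180.3. Of that list, Siglech read 0, 0 and 23.2 CPM in tumour DN Tregs of replicates 1, 2 and 3. It was at 0 in every tumour IL10 and Ebi3 library and at most 0.269 CPM in the lymph node. B cell markers summed to 18.1 to 51.3 in the tumour and 18 to 81.8 in the lymph node. Myeloid markers summed to 6.39 to 23.6 in the tumour and 2.37 to 213.9 in the lymph node. Their part in the result was not tested.

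The IL10 and Ebi3 populations were compared with DN Tregs at each site. In the lymph node 24 of the 48 genes were lower in Ebi3 than in DN Tregs and 0 were higher, against 6.07% and 6.96% of all genes, and the median log2 fold change was -0.61. Of the roles, 7 of 8 GTPases and 3 of 6 transcription factors were lower. Oasl2 (-1.80 ± 0.34), Ifit1 (-1.38 ± 0.22), Irgm2 (-1.27 ± 0.21), Gbp2 (-1.15 ± 0.18), Irf7 (-1.06 ± 0.16), Igtp (-0.93 ± 0.15), Irf1 (-0.76 ± 0.13) and Ifnar1 (-0.72 ± 0.14) were among them. Without lymph node Ebi3 replicate 3 the count was 17, and with batch 1, 2 or 3 left out it was 16, 18 and 17. The genes named here were called in each of these fits. In IL10 Tregs of the lymph node 12 genes were lower and 4 higher, against 7.37% and 8.81% of all genes. The 4 were Ly6a (2.03 ± 0.20), Gbp3 (1.06 ± 0.19), Oas1a (0.84 ± 0.28) and Gbp7 (0.58 ± 0.11), and Usp18 (-1.53 ± 0.26), Oasl2 (-1.54 ± 0.34), Irf7 (-0.80 ± 0.16) and Ifnar1 (-0.72 ± 0.14) were lower. The calls of Oas1a, Oasl2 and Irf7 did not hold in each of them, and the count of 16 was 5 without batch 2, 8 without batch 1 and 13 without batch 3.

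The same comparisons in the naive source gave 18 genes lower and 1 higher in Ebi3 than in DN Tregs, against 5.45% and 7.4% of all genes. Irf1 (-0.89 ± 0.13), Ifnar1 (-0.94 ± 0.14), and Ly6a (-0.90 ± 0.20) were lower, and Gbp3 was higher by 0.61 ± 0.19. In IL10 Tregs of the naive source 15 were lower and 4 higher, against 7.85% and 9.98% of all genes. Ly6a (2.14 ± 0.20), Gbp3 (1.74 ± 0.20), Irf8 (1.01 ± 0.30) and Gbp7 (0.67 ± 0.11) were higher, while Usp18 (-1.80 ± 0.26), Ifit1 (-1.18 ± 0.22) and Irf7 (-1.08 ± 0.16) were lower. Ifi44 read 0, 0 and 0.0701 CPM there and 7.27, 0.889 and 2.85 in DN Tregs, so no fold change is given. With a batch left out the counts of 19 and 19 became 10 to 11 in Ebi3 and 10 to 14 in IL10 Tregs. Each of these comparisons shares the DN libraries of its site, so an offset of those libraries enters both.

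In the tumour few of the genes or none were called between populations. By edgeR 0 of the 48 genes were called between Ebi3 and DN Tregs, where 0.713% of all genes were, and 12 had an unadjusted p under 0.05, as did 1241 of the 12907 genes tested. Between IL10 and DN Tregs 0 were called, against 0.837% of all genes, and 5 had an unadjusted p under 0.05, as did 1202 of the 12907. DESeq2 called 2 in each comparison, and limma on the deposited log2 values called 1 for IL10 and 0 for Ebi3. Between IL10 and Ebi3 Tregs 4 genes were higher in IL10 and 0 lower, against 1.77% of all genes: Gbp3 (0.69 ± 0.19), Irf2 (0.56 ± 0.15), Gbp7 (0.41 ± 0.11) and Ly6e (0.29 ± 0.07). None of the 4 remained with any single batch left out.

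The difference between populations in the change from lymph node to tumour was tested as an interaction. For IL10 against DN Tregs 4 of the 48 genes were called, against 4.49% of all genes: Usp18 (1.49 ± 0.36, edgeR adjusted p 0.014), Irf7 (0.81 ± 0.23, 0.038), Samd9l (0.68 ± 0.19, 0.036) and, with the smaller change in IL10 Tregs, Ly6a (-1.23 ± 0.28, 0.0092). For Ebi3 against DN Tregs 2 were called, against 1.61%: Igtp (0.91 ± 0.21, 0.018) and Ifi47 (0.74 ± 0.16, 0.011). Without batch 1 the first count was 0, without batch 2 it was 1 and without batch 3 it was 3, and the second was 0 in each case and 1 without lymph node Ebi3 replicate 3. For the other genes a larger change in one population was not shown. Ifi47, an immunity-related GTPase, read 890, 1211 and 905 CPM in lymph node DN and 753, 997 and 959 in tumour DN, against 515, 692 and 463 and 689, 996 and 773 in Ebi3 Tregs. The lymph node DN libraries were above the lymph node Ebi3 libraries, and the tumour libraries of both overlapped.

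Between lymph node and naive Tregs 0 of the 48 genes were called by edgeR in each population, where 0.0852% of all genes were called in DN, 0.0542% in IL10 and 0.00775% in Ebi3 Tregs. At an unadjusted p under 0.05 there were 14, 14 and 2 in DN, IL10 and Ebi3 Tregs, where 959, 763 and 613 of all 12907 genes were, and DESeq2 called 1, 4 and 1. Limma called 1, in IL10 Tregs. Naive DN Tregs against naive Teff gave 9 genes higher and 1 lower, against 8.79% and 3.42% of all genes. Gbp3 (2.87 ± 0.21), Irf8 (1.22 ± 0.31), Isg20 (1.23 ± 0.21), Iigp1 (1.23 ± 0.23), Ly6e (1.00 ± 0.07), Igtp (0.69 ± 0.15), Gbp7 (0.65 ± 0.11), Ifnar1 (0.60 ± 0.14) and Ifi35 (0.46 ± 0.13) were higher in Tregs, and Ddx58 was lower (-0.94 ± 0.18). Of these, Irf8, Ifnar1 and Ifi35 did not hold in every fit with a batch or library left out.

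In CD8 T cells 29 of the 48 genes were called higher in the tumour NEG population than in the lymph node, and 40 were called lower from INT to SP and 40 from SP to DP. Each source gives its own difference between populations of the mean log2 CPM of the 48 genes. From NDLN to NEG the mean rose in 10 of 12 sources, with a median difference of 0.61 and a range of -0.20 to 1.62. From NEG to INT it was higher in 8 of 12, with a median of 0.08 and a range of -0.42 to 0.94. From INT to SP it was lower in 11 of 12, with a median of -1.07 and a range of -2.01 to 0.27, the exception being DKO replicate 3. From SP to DP it was lower in 12 of 12, with a median of -1.16 and a range of -2.25 to -0.46. DP lay below NEG in 12 of 12 sources, with differences from -3.19 to -1.46.

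**Figure D4:**
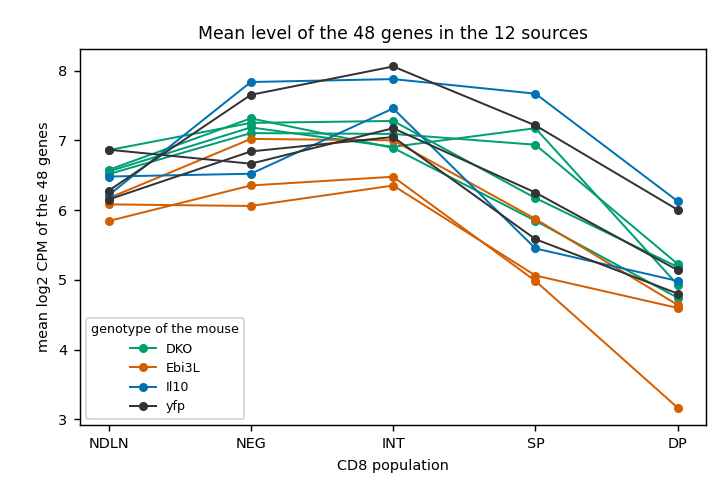
Mean log2 CPM of the 48 genes (vertical axis) in the 5 CD8 populations (horizontal axis), with 1 line for each of the 12 sources, coloured by the genotype of the mouse. Every line falls from SP to DP, and the DP library of Ebi3L replicate 3 is the lowest point at 3.17.

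A fit over the 60 CD8 libraries with the source as a term tested 14734 genes. Between NDLN and NEG 29 of the 48 genes were higher and 0 lower, against 10.3% and 5.23% of all genes, with a median log2 fold change of 0.61. By role these were 1 of 2 receptor subunits, 4 of 6 transcription factors, 3 of 4 sensors, 10 of 17 effectors, 4 of 6 genes of the ISG15 system, 3 of 8 GTPases and 4 of the 5 others. Between NEG and INT 1 was higher, Isg20 (0.87 ± 0.18), and 1 lower, Irf1 (-0.53 ± 0.12), against 7.97% and 5.08%. Between INT and SP 40 were lower and 1 higher, against 13.4% and 14.4%, with a median of -0.84. Between SP and DP 40 were lower and 2 higher, against 11.6% and 10.7%, with a median of -0.86. By genes, 35 were lower at both of the last steps, and Irf8, Ly6a and Oas1a were lower at neither. Leaving out each source in turn gave 27 to 32 calls for NEG against NDLN, 41 for SP against INT and 39 to 44 for DP against SP, and 26 of the 29, 41 of the 41 and 39 of the 42 calls held every time. This holds without the Ebi3L DP library with the lowest mean, whose source was among those left out. The 4 genotypes enter this fit together, so it describes the populations over all of them.

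In mice labelled yfp alone, with 3 libraries per population, DP against NEG gave 35 genes lower and 1 higher, where 33.2% of the 12791 genes tested were called in either direction, and a median of -1.42. The 1 was Irf8 (2.86 ± 0.86), a call that held in 1 of 3 fits with a library number left out, and the count of 36 was 21 without yfp replicate 3. Between neighbouring populations the yfp libraries gave fewer calls. SP against INT gave 12 lower and 0 higher, against 3.04% and 1.85% of all genes, and 24 calls with the set of libraries as a block, but 1 without yfp replicate 3, 7 without replicate 1 and 9 without replicate 2. DP against SP gave 3 lower and 0 higher (Ifnar2, Irf7 and Irf9), against 1.15% and 0.0625%, 11 with the block and 1 without yfp replicate 3. NEG against NDLN gave Ly6a alone, against 1.32% of genes called higher, 3 calls with the block, 16 without yfp replicate 2 and 0 without replicate 1 or 3. INT against NEG gave 0 by edgeR, with 3 at an unadjusted p under 0.05 where 1697 of the 12791 genes were, against 0.938% called, and 0 by DESeq2 and by limma.

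**Figure D5:**
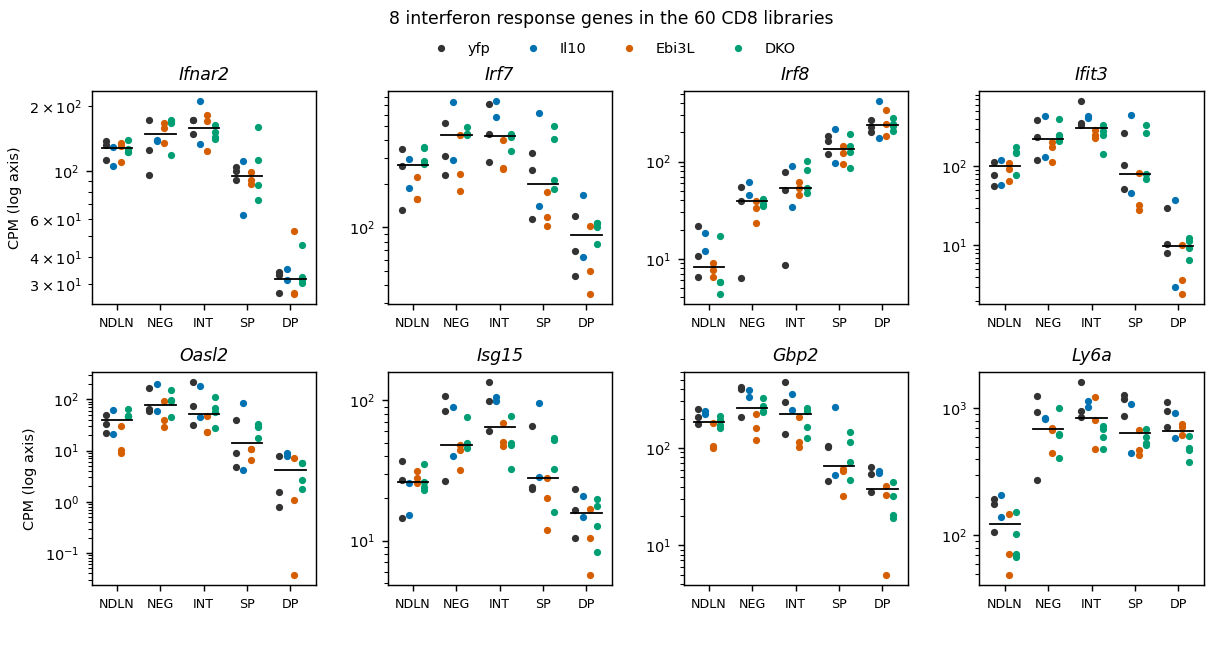
CPM on a log axis (vertical) of 8 genes in the 5 CD8 populations (horizontal), with 1 point for each of the 12 libraries coloured by the genotype of the mouse and a bar at the median. Irf8 rises from a median of 8.29 in NDLN to 237 in DP, Ly6a has its lowest median in NDLN, and the other genes have their lowest median in DP.

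Both receptor subunits fell at the last step. Ifnar2, over the 12 libraries of each population, read 105, 128 and 139 CPM (lowest, median and highest) in NDLN, 95.4, 148 and 172 in NEG and 123, 157 and 212 in INT. It read 62.5, 94.8 and 159 in SP and 26.8, 31.7 and 52.5 in DP. Every DP library was below every library of the other populations, and the log2 fold change from SP to DP was -1.45 ± 0.11, with an edgeR adjusted p of 1.2e-14. Ifnar1 read 84.8, 144 and 237 CPM in SP and 37.2, 84.7 and 116 in DP, ranges that overlapped, with -0.82 ± 0.10 and an adjusted p of 2.4e-08. From INT to SP only Ifnar2 of the pair was called, by -0.74 ± 0.11, while Ifnar1 read -0.16 ± 0.10.

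Among the transcription factors Irf8 went against the rest. It read 4.31, 8.29 and 21.6 CPM in NDLN, 6.42, 39.5 and 61.6 in NEG and 8.54, 53.2 and 102 in INT. In SP it read 86.0, 135 and 219 and in DP 176, 237 and 424. The DP libraries were above the NEG, INT and NDLN libraries without overlap, and DP exceeded NEG in 12 of 12 sources. The edgeR log2 fold changes were 1.97 ± 0.27 for NEG against NDLN, 1.25 ± 0.25 for SP against INT and 0.94 ± 0.25 for DP against SP. The lowest NEG and INT values, 6.42 and 8.54, both came from yfp replicate 2. Irf7 read 178, 438 and 737 CPM in NEG, 254, 430 and 752 in INT, 102, 199 and 621 in SP and 34.6, 89.2 and 168 in DP. DP lay below every NEG and INT library, and the changes were -0.92 ± 0.15 from INT to SP and -1.43 ± 0.15 from SP to DP. Irf1 fell at all 3 steps within the tumour, with -0.53 ± 0.12 from NEG to INT, -1.13 ± 0.12 from INT to SP and -0.47 ± 0.12 from SP to DP. Stat2 (-0.78 ± 0.16) and Irf9 (-0.85 ± 0.09), partners in the complex that binds the ISRE, also fell from SP to DP.

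All 4 sensors were lower in DP than in SP, and 2 of 4 in SP than in INT. Zbp1 read 106, 154 and 283 CPM in NEG, 119, 187 and 333 in INT, 42.3, 95.7 and 207 in SP and 30.9, 47.2 and 90 in DP. The DP libraries lay below every NEG and INT library, and the log2 fold changes were 0.99 ± 0.16 for NEG against NDLN, -0.98 ± 0.16 for SP against INT and -0.80 ± 0.16 for DP against SP. Ifih1, the MDA5 sensor of long viral RNA, read 0.71 ± 0.20, -0.31 ± 0.20 (not called) and -0.90 ± 0.20 at those steps.

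Of the antiviral effectors 14 of 17 fell from INT to SP and 14 of 17 from SP to DP, and they held the largest changes. Ifit3, which stabilises Ifit1 on viral RNA, read 56.6, 101 and 174 CPM in NDLN, 113, 222 and 438 in NEG and 144, 308 and 674 in INT. It read 27.8, 80.9 and 446 in SP and 2.42, 9.80 and 37.5 in DP. The DP and INT libraries were apart without overlap, while the SP range reached into both. The change from SP to DP was -3.50 ± 0.35, with an edgeR adjusted p of 1.3e-10. Oasl2 read 29.3, 78.5 and 197 CPM in NEG and 0.0365, 4.15 and 8.93 in DP, and changed by -1.82 ± 0.37 from INT to SP and -2.13 ± 0.39 from SP to DP. Rsad2 (-2.36 ± 0.43), Ifit1 (-2.43 ± 0.36) and Mx2 (-2.74 ± 0.50), a dynamin-like GTPase, fell from SP to DP as well. At these low levels genes dropped out of single libraries: of the 12 DP libraries, 4 had 0 counts of Oas2, 9 of Ifi44 and 2 each of Mx2 and Oasl1. Bst2 fell from INT to SP (-0.61 ± 0.14) and read -0.26 ± 0.14 from SP to DP, which was not called.

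All 6 genes of the ISG15 and ADP-ribose system were lower at both steps. Isg15 read 14.5, 26.0 and 37.2 CPM in NDLN, 26.7, 48.4 and 108 in NEG, 32.3, 65.0 and 136 in INT, 11.9, 28.1 and 95.8 in SP and 5.66, 15.6 and 23.2 in DP. Every DP library was below every NEG and INT library. Its changes were 1.05 ± 0.22 for NEG against NDLN, -1.04 ± 0.22 for SP against INT and -1.21 ± 0.22 for DP against SP. Usp18 gave 0.87 ± 0.20, -1.08 ± 0.20 and -0.98 ± 0.20 at the same steps.

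All 8 GTPases were lower in SP than in INT, and 6 of 8 lower and 1 higher in DP than in SP. Gbp2 read 121, 257 and 419 CPM in NEG, 101, 223 and 478 in INT, 32.4, 65.8 and 262 in SP and 4.93, 37.8 and 63.9 in DP. The DP libraries lay below every NEG and INT library, and the changes were -1.36 ± 0.20 and -1.13 ± 0.20. Its lowest value, 4.93, was Ebi3L replicate 3, and the next DP library stood at 19.2. Iigp1 changed by -2.14 ± 0.55 and -2.38 ± 0.56, and 4 of the 12 DP libraries had no count. Gbp3 was the exception, with -0.37 ± 0.11 from INT to SP and 0.55 ± 0.11 from SP to DP.

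Ly6a was higher in every tumour population than in the lymph node and showed no called change among the tumour populations. It read 48.6, 123 and 207 CPM in NDLN, 275, 685 and 1254 in NEG, 479, 838 and 1620 in INT, 426, 635 and 1283 in SP and 380, 663 and 1129 in DP. Every tumour library was above every lymph node library, the tumour populations overlapped throughout, and the change from NDLN to NEG was 2.63 ± 0.17, with an edgeR adjusted p of 1.5e-16. Its changes at the 3 later steps were 0.24 ± 0.16, -0.29 ± 0.16 and 0.03 ± 0.16, none of them called. Ly6e moved less, with 0.35 ± 0.07, 0.12 ± 0.07, -0.26 ± 0.07 and -0.41 ± 0.07 over the 4 steps.

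Markers of other cells moved with the CD8 populations too. The summed CPM of the 6 B cell markers in the table had a median of 61.1 in NDLN, 32.3 in NEG, 35.0 in INT, 9.59 in SP and 1.86 in DP. From INT to DP it fell along with the interferon response genes, while from NDLN to NEG it fell and most of those genes rose. Ms4a1 and Pax5 were at 0 in every DP library. Myeloid markers rose from NDLN to NEG, where most of the 48 genes also rose, from a median of 10.7 to 33.9. Their medians were 52.3 in INT, 47.3 in SP and 47.8 in DP. CD8 markers had a median of 3308 in NDLN and 2024 in DP. Conventional dendritic cell markers rose, from a median of 3.87 in NDLN and 7.0 in NEG to 34.4 in SP and 41.6 in DP. Zbtb46 had a mean CPM of 0 in NDLN, 1.41 in NEG, 17.5 in SP and 15.48 in DP, and Xcr1 4.46, 4.91, 13.8 and 22.3, while Clec9a and Cd209a were at 0 in every DP library. Stromal markers fell, with medians of 100, 80.0, 79.6, 49.8 and 24.3 over NDLN, NEG, INT, SP and DP, and so did pigment cell tumour markers, with 17.6, 12.7, 8.5, 5.32 and 2.74 in NDLN, NEG, INT, SP and DP. Markers of Tregs, which include genes of activated T cells, rose from a median of 103 in NEG to 559 in DP. Median library totals were 24.5 M in NEG and 29.6 M in DP. Their part in the result was not tested.

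The genotype of the mouse, that is the loss of IL10, IL35 or both in Tregs, was compared with yfp within each CD8 population. In 15 such comparisons 0 of the 48 genes were called by edgeR, and between 0.0% and 0.00811% of the 12336 to 13255 genes tested were called. At an unadjusted p under 0.05 the counts were highest in INT, with 26 for DKO and 27 for Ebi3L, where 735 and 648 of all 12909 genes were, and in SP for Ebi3L, with 21, where 618 of 13255 were. The log2 fold changes of the 48 genes leaned to one side there: 46 were negative for DKO in INT (median -0.63), 45 for Ebi3L in INT (-0.66) and 47 for Ebi3L in SP (-0.65). Ebi3L leaned the same way elsewhere, the lymph node included. There 6 of 48 were positive in NDLN (median -0.31), 3 of 48 in NEG (-0.48) and 7 of 47 in DP (-0.42). For DKO 10 of 47 were positive in DP, and 22, 21 and 29 of 48 in NDLN, NEG and SP. For Il10, with 2 libraries, at most 5 genes had an unadjusted p under 0.05, in SP, as did 551 of all genes there, and 46 of the 48 changes in SP were positive. In the other populations 7 of 48 Il10 changes were positive in NDLN, 34 in NEG, 24 in INT and 32 of 47 in DP. The comparisons of a population share its yfp libraries.

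The tools differed on this comparison. DESeq2 called 10 genes for DKO and 9 for Ebi3L in INT and 3 for Ebi3L in SP. With no filter on low counts edgeR called 21, 22 and 13, while limma called 0 in all 15. The share of all genes called under these settings is not given here, so these counts cannot be set against it. Zbp1 had the lowest adjusted p in INT, with -0.79 ± 0.15 for DKO (edgeR adjusted p 0.25) and -0.84 ± 0.15 for Ebi3L (0.19). It read 257, 213 and 333 CPM in yfp INT, 159, 119, 133 and 141 in DKO INT, 141, 201 and 174 in Ebi3L INT and 234 and 221 in Il10 INT. The DKO and Ebi3L libraries lay below the yfp libraries, and the Il10 libraries lay within their range. In INT, Irf7 read 712, 440 and 284 in yfp, 444, 338, 424 and 436 in DKO and 400, 259 and 254 in Ebi3L, and the groups overlapped.

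Some genotypes carry the same set name in the labels, which gives a comparison within 1 set, with 1 library on each side and no test. DKO less yfp in the set they shared gave differences of the mean log2 CPM of the 48 genes of 0.58 in NDLN, -0.40 in NEG, -0.78 in INT, -1.04 in SP and -0.82 in DP. Ebi3L less yfp gave -0.78, -0.61, -0.82, -1.19 and -0.54 in one shared set and -0.31, -0.49, -0.57, -0.60 and -1.64 in the other. In the first of these sets the yfp libraries are labelled batch 1 and the Ebi3L libraries batch 3, so that pair crosses the batch label. The Ebi3L library was lower in all 10 pairs, and the DKO library in the 4 tumour pairs with yfp but not in the lymph node. The yfp side of those DKO pairs was yfp replicate 1, which had the highest mean of the yfp libraries in each tumour population. DKO less Il10 in the 2 sets they shared gave 0.09, 0.79, -0.57, 0.40 and -0.24, and 0.34, -0.65, -0.97, -0.50 and -1.20, with no common sign, and DKO less Ebi3L gave 0.34, 0.08, 0.09, 1.06 and 0.59. Whether the step from NEG to DP differed between genotypes was tested over 24 libraries: 0 of the 48 genes were called for DKO or Ebi3L against yfp, 3 had an unadjusted p under 0.05 in each, as did 430 and 480 of all genes, and 0.0% of 13788 genes were called.

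Within groups most of the 48 genes varied together from library to library. After removing the group means, the median correlation over the 1128 pairs of the 48 genes was 0.317 across the 30 Treg-series libraries and 0.481 across the 60 CD8 libraries, against 0.0184 and 0.0422 for pairs of all genes. In the CD8 series 86.8% of these pairs were positive, against 56.0% of all pairs, and in the Treg series 77.9% against 52.3%. Irf7 (0.918), Trim30a (0.917) and Gbp7 (0.902) followed the mean of the other members most closely in CD8 cells, and Ifit1 (0.906), Ifi47 (0.898) and Ddx58 (0.851) in the Treg series. Irf8 (-0.0837) and Ly6e (-0.0529) did not follow it in CD8 cells. In the Treg series Ly6e (-0.625), Xaf1 (-0.364), Bst2 (-0.214), Isg20 (-0.122) and Zbp1 (-0.0668) did not. Ifi35 (0.00134) and Gbp7 (0.0536) were near 0 there. Ly6e, Xaf1, Bst2, Isg20 and Zbp1 are among the genes whose tumour calls held in every fit in each Treg population. The libraries share sets, batches and depth, so these are descriptions of them.

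The genes with and without an ISRE-like motif in the promoter window are set side by side here, with no test of their difference. Tumour against lymph node, the median log2 fold change of the 18 genes with the motif and of the 18 without it was 0.65 and 0.43 in DN, 0.86 and 0.97 in IL10 and 1.00 and 1.02 in Ebi3 Tregs. In CD8 cells the medians were -0.83 and -0.80 for SP against INT and -0.93 and -0.74 for DP against SP. Ifit1, Isg15, Rsad2 and Gbp2, whose ISRE-like letters are printed above, fell at both CD8 steps, and so did Irf1, which carries the GAS-like letters, while Irf8, which also carries them, rose.

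Other genes of the interferon pathway, a list of 99 of which 96 were in the table, gave the surroundings of these changes. In Tregs, tumour against lymph node, 22 of 86 tested were higher and 16 lower in DN, 28 and 1 in IL10, and 27 and 4 in Ebi3 Tregs. Of all genes 12.9% were higher and 10.5% lower in DN, 5.56% and 3.77% in IL10, and 6.24% and 4.01% in Ebi3 Tregs. Ifngr1, the binding subunit of the interferon gamma receptor, rose in all 3, by 2.56 ± 0.13 in DN Tregs, while Ifngr2, its signalling subunit, fell in DN Tregs, with -1.99 ± 0.25. Ifng, the ligand itself, rose by 3.96 ± 0.56, 2.64 ± 0.53 and 2.41 ± 0.53 in DN, IL10 and Ebi3 Tregs. In CD8 cells 29 of 88 were higher and 3 lower for NEG against NDLN, 2 and 52 for SP against INT, and 2 and 44 for DP against SP. Of all genes 10.3% were higher and 5.23% lower at the first of these steps, 14.4% and 13.4% at the next and 10.7% and 11.6% at the last. The receptor kinase Jak1 (-0.28) and the feedback inhibitor Socs1 (-1.01 ± 0.13) fell from SP to DP.

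Ifng in CD8 cells went the other way. It read 4.33, 35.9 and 123 CPM (lowest, median and highest of 12 libraries) in NEG, 29.7, 114 and 294 in INT, 49.1, 136 and 365 in SP and 220, 466 and 2280 in DP, and rose by 1.92 ± 0.50 from SP to DP. Ifngr2 read 22.0, 38.5 and 62.7 CPM in NDLN, 4.69, 19.3 and 122 in NEG, 0.340, 7.96 and 25.2 in INT and 0, 0.787 and 3.51 in SP, and 10 of the 12 DP libraries had no count. No DP library exceeded 0.225 CPM of Ifngr2, so no fold change is given.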

How the data were processed

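RNA of double-sorted T cells was made into cDNA with SMART-Seq v4 (Tregs) or v3 (CD8) and into Nextera XT libraries, per the labels' protocols. STAR, featureCounts of Subread and limma on mm10 are named, with no versions, per the submitters' processing notes. The raw table deposited by the authors holds counts per gene for all 90 libraries, and the 2 normalized tables deposited by the authors hold log2 values, used here only for limma. The strand setting of the counting is not given in the sources used here.

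Library totals were 9.73 M to 20.2 M counts in the Treg series and 19.2 M to 47.7 M in the CD8 series, and levels at a few counts carry counting error. Counts were divided by the library total for CPM, with 0.5 added to the count before log2. edgeR 4.0.16 in R 4.3.3 gave the tests: TMM scaling, its filter on low counts by group, a robust quasi-likelihood fit and Benjamini-Hochberg adjustment over all genes tested at 0.05. The SE is the log2 fold change divided by the square root of the F statistic. The Treg fit had group and batch, the yfp and genotype fits population or genotype and batch, and the fit of all CD8 libraries population and source. In Tregs the replicate number is the batch label: libraries of the same batch deviated from their group means with a median correlation of 0.0822 over 135 pairs, against -0.0683 over 270 other pairs.

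The 48 genes and all lists were chosen with earlier results of these data known. Genes named in the text were representatives of each role, plus the members with the largest changes among those called and a few genes of the wider pathway; others, named to spell out a count, were chosen after their values were seen. Alternatives were DESeq2 1.42.0, limma 3.58.1, the size factors of DESeq2 in edgeR, no filter, another block and leaving out replicates or sources. The scripts were tested on simulated data with known changes. Of 2-fold changes, 41.2% were called in the Treg fit, 38.1% in the fit of all CD8 libraries, 27.1% in the yfp fit and 28.9% in the INT genotype fit. Of 4-fold changes, 60.2%, 64.6%, 52% and 52.6% were called. Unchanged genes made up 2.94% to 4.82% of the calls. A gene that was not called may therefore still have changed.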

Additional observations from a re-analysis of the deposited data

Results flagged for a closer look

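In the 105 sets of 4 values examined for a stray value, 8 held a value far from the other 3, where chance alone gives about 1 in 20. Each set was 1 quantity, such as the CPM of a representative gene, in the 4 libraries of a DKO group. Sets of the same group come from the same libraries, so the 105 are not independent checks. Of the receptor subunits, Ifnar2 read 45.4 CPM in DKO replicate 4 of DP, where the other libraries read 30.4 to 32.2, and 118 CPM in replicate 4 of NEG, where the others read 167 to 172. Of the transcription factors, Irf1 stood apart at 290.1 CPM in INT, Irf8 at 17.3 CPM in NDLN and Irf7 at 494.5 CPM in NEG. The effector Oasl2 stood apart at 64.6 CPM in NDLN and Ifit1 at 275 CPM in NEG, and Isg15 at 76.1 CPM in NEG.

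In 6 genes the change from lymph node to tumour was called different between Treg populations by the interaction test of edgeR. Against DN Tregs, the log2 change in IL10 Tregs was larger by 1.49 for Usp18, 0.81 for Irf7 and 0.68 for Samd9l, and differed by -1.23 for Ly6a. The change in Ebi3 Tregs was larger by 0.91 for Igtp and 0.74 for Ifi47. The counts of these calls with a batch left out stand beside the result.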

How the results depend on the processing

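Over all comparisons and alternatives, the count of the 48 genes called was within 1.5 times the reported count in 467 cases and moved further in 72, and no call of a named gene reversed. With a batch left out, the counts were 14 to 21 for tumour against lymph node in DN Tregs and 18 to 26 in IL10 Tregs (31 without lymph node Ebi3 replicate 3), 5 to 13 for lymph node IL10 against DN, 10 to 11 for naive Ebi3 and 10 to 14 for naive IL10 against DN, 0 to 3 for the site change of IL10 and 0 for that of Ebi3 against DN, and 0 for tumour IL10 against Ebi3. In CD8 cells, with a replicate left out, they were 21 to 38 for yfp DP against NEG, 1 to 4 for DP against SP, 0 to 16 for NEG against NDLN and 1 to 9 for SP against INT, and for the genotypes 0 to 2 for DKO in INT, 0 to 3 for Ebi3L in INT and 0 to 2 for Il10 in NEG.

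DESeq2 gave 1, 4 and 1 for lymph node against naive in DN, IL10 and Ebi3 Tregs, 2 each for tumour Ebi3 and IL10 against DN, 10, 8 and 25 for yfp DP against SP, NEG against NDLN and SP against INT, and for the genotypes 10 (DKO) and 9 (Ebi3L) in INT, 2 and 1 in DP, and 3 (NDLN), 1 (NEG) and 3 (SP) for Ebi3L. limma gave 1 for lymph node against naive IL10, 1 each for tumour IL10 against DN and against Ebi3, and 6 and 20 for yfp DP against SP and SP against INT. With no filter, calls were 21 (DKO) and 22 (Ebi3L) in INT, 1 and 2 in NDLN, 2 and 13 in SP, 2 for Il10 in SP, 4 for Ebi3L in NEG, 1 for tumour IL10 against Ebi3, and 5 and 3 for yfp DP against SP and NEG against NDLN. The size factors of DESeq2 in edgeR gave 1 and 2 for tumour IL10 against DN and against Ebi3. Without lymph node Ebi3 replicate 3, an alternative chosen after seeing the data, 1 was called for Ebi3 lymph node against naive, for the site change of Ebi3 and for tumour IL10 against DN. The cause was not tested. For all alternatives the share of all genes called is not given here, so a count may reflect a setting that calls more or fewer genes of any kind.

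Without the replicate block in Tregs, the counts were 6 for lymph node IL10 and 9 for naive Ebi3 against DN, 0 and 2 for the site change of Ebi3 and IL10 and 0 for tumour IL10 against Ebi3. In yfp CD8 cells the labels name a set for each library without saying what a set shares: libraries of the same set deviated together with a median correlation of 0.172, and 24 of 30 pairs were over 0.1. With the set as a replicate block, 11, 3 and 24 were called for DP against SP, NEG against NDLN and SP against INT, and 1 for Ebi3L in SP. Sets and genotypes overlap in part, the Il10 groups have 2 libraries, and low DP counts limit the effectors.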

Other observations

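Some genes of class I antigen presentation on the wider pathway list are given here, picked out after their values were seen. From SP to DP, Psmb8, a subunit of the immunoproteasome, rose by 0.14 ± 0.05, and its partners Psmb9 (0.15 ± 0.07) and Psmb10 (0.01 ± 0.07) and the peptide transporter Tap1 (-0.07 ± 0.07) were not called. Over the same step Nlrc5, the transactivator of class I genes, fell, with -0.85 ± 0.10. In Tregs, tumour against lymph node, Tap1 rose by 0.68 ± 0.15 in DN, 1.01 ± 0.15 in IL10 and 0.94 ± 0.15 in Ebi3 Tregs, and Psmb9 by 0.82 ± 0.10, 0.56 ± 0.09 and 0.81 ± 0.10.

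Ly6c1, a surface protein of memory T cells on the same list, went in opposite directions, with -3.20 ± 0.29 in DN Tregs and 2.08 ± 0.30 in IL10 Tregs, both called by edgeR. Ifitm2, which blocks the entry of viruses into cells, rose by 3.43 ± 0.33 in DN, 3.37 ± 0.33 in IL10 and 1.99 ± 0.31 in Ebi3 Tregs, and in CD8 cells by 4.17 ± 0.86 from NDLN to NEG.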
